A study of Canis lupus familiaris with 18 samples.

Results

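The genes described here are the members of the AP-1 and EGR families of immediate early transcription factors, FOS, FOSB, FOSL1, FOSL2, JUN, JUNB, JUND and EGR1, together with the stress-induced genes ATF3 and IER3. Members were taken as every probe set that the platform annotation gave to exactly 1 of these 10 symbols, which left 13 of 43035 probe sets and 9 of the 10 genes. No probe set carried JUND as its only symbol in the annotation used, so JUND was not analysed here. FOS, FOSL2, EGR1 and IER3 had a pair of probe sets each and the other genes had 1.

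The samples were 18 canine primary osteosarcomas, malignant bone tumours of the dog, each measured on 1 Affymetrix canine array. In 9 of them the dog's serum alkaline phosphatase (ALP), an enzyme that reaches the blood from bone and liver, was normal, and in the other 9 it was increased. All of the tissue had been snap frozen at surgery, biopsy or necropsy, and the labels do not tie a tumour to a procedure, a breed, an age or a scan date. No normal bone or other reference tissue was included, and the labels do not say that every tumour came from a different dog, so p-values measure the spread between these 18 tumours.

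Immediate early genes are transcribed within minutes of a growth factor or stress signal, because the factors that switch them on, such as SRF and ELK proteins, are already present and need only be phosphorylated. FOS and JUN proteins pair through leucine zippers to form AP-1, which binds DNA and drives genes of proliferation, invasion and matrix breakdown. In bone the family is known from a mouse osteosarcoma virus that carried a form of FOS, from bone tumours in mice that overexpress Fos, and from the need for Fos in osteoclast formation.

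Levels are given as log2(signal + 16), computed from the deposited log2 values. The added 16 damps the noise of dim probe sets and understates their changes. A level can be compared between tumours at 1 probe set, not between genes. The median of the deposited log2 values was 6.25 to 6.31 per array. Of 9 osteoblast markers, 7 had a probe set of their own, and the mean of each of these 7 lay above the filter on dim probe sets. COL1A2, the second chain of type I collagen, stood between 14.59 and 15.09 in every tumour. The bone sialoprotein gene IBSP ranged from 4.85 to 14.21, so the markers did not bear out the tissue label equally in each tumour. These are bulk samples, in which fewer cells of a type and less RNA per cell cannot be told apart. Increased ALP replicates 3 and 6 stood apart in the BioB spike-in, a bacterial RNA control, at 10.34 and 9.89 against 8.33 to 9.21 in the other 16 tumours. RNA integrity was read from the actin 3' to middle difference, which lay between 0.371 and 0.481 with normal ALP and between 0.432 and 1.15 with increased ALP.

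At all 13 member probe sets the ALP groups overlapped, but the share over all probe sets was not counted. None of the member genes could be told apart between the groups, and 0 of all 25754 probe sets tested had an adjusted p under 0.05 in limma. The members' variation lay between single tumours instead. FOS, JUN and EGR1 spanned 18.1-fold, 17.3-fold and 14.0-fold over the 18 tumours, whereas FOSL1 spanned 1.83-fold. FOSB, which lay below the filter on dim probe sets, spanned 2.22-fold. These spans were taken from the deposited values, without the added 16. The noise of a dim probe set is therefore not damped in them, and that of FOSB cannot be set beside those of brighter probe sets. A single tumour, normal ALP replicate 4, was the highest of 18 in FOS, FOSB, JUNB, EGR1 and ATF3.

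**Figure D1:**
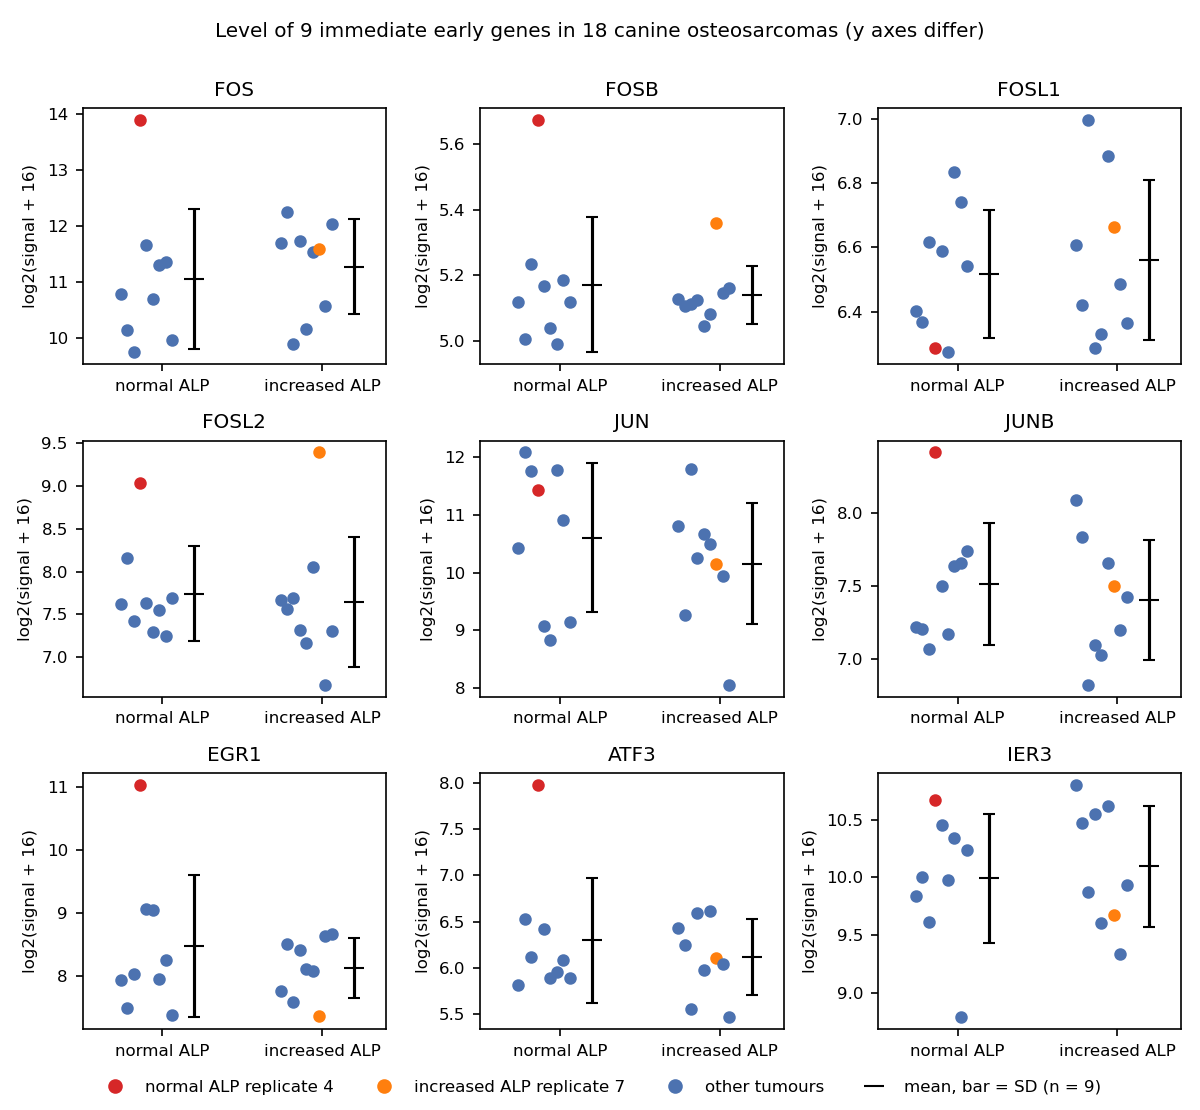
Level of the 9 measured genes, each at its probe set of highest mean, as log2(signal + 16) in 9 tumours with normal and 9 with increased serum ALP; each point is 1 tumour, the horizontal mark is the group mean and the bar its SD, and the y axes differ. Normal ALP replicate 4 (red) is highest in FOS, FOSB, JUNB, EGR1 and ATF3, increased ALP replicate 7 (orange) is highest in FOSL2, and the groups overlap in every panel.

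FOS, which binds DNA as a partner of JUN proteins and not by itself, was measured by a pair of probe sets. At that of higher mean, levels with normal ALP ran from 9.74 through a median of 10.79 to 13.89, and with increased ALP from 9.89 through 11.58 to 12.25. One tumour, normal ALP replicate 4, stood above the range of the other group, 1.64 above the next tumour, increased ALP replicate 2, and its signal was 5.95-fold the median of all tumours. The lowest tumours were normal ALP replicate 3 and increased ALP replicate 3. Group means were 11.06 ± 1.25 and 11.27 ± 0.84 (SD, n = 9 each). The difference, increased minus normal, was 0.21 ± 0.47 (SE, 95% interval -0.77 to 1.19), which allows a fold between 0.588 and 2.29 (limma, adjusted p = 0.953; exact two-sided permutation p = 0.686). Without normal ALP replicate 4 the difference was 0.57, with an adjusted p of 0.916 in limma. With the actin 3' to middle difference as a covariate it was -0.10.

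At the second FOS probe set the same tumour stood farther out, at 11.33 against 6.76 to 8.65 in the other 17 tumours. Its signal there was 13.9-fold the median. The group difference had the opposite sign, -0.26 ± 0.46 (SE; limma, adjusted p = 0.942), and turned to 0.17 without that tumour. The pair of FOS probe sets followed each other across tumours, with r = 0.911 in all 18 and 0.902 without normal ALP replicate 4.

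FOSB, a FOS relative known for its stable truncated splice form, was dim. Its probe set lay below the filter, so its difference comes from a fit without it. Levels with normal ALP ran from 4.99 through 5.12 to 5.67, and with increased ALP from 5.04 through 5.12 to 5.36. The highest was normal ALP replicate 4 and the next increased ALP replicate 7, and the other 16 tumours lay within 4.99 to 5.23. The group difference was -0.03 ± 0.07 (SE; limma, adjusted p = 0.940; exact permutation p = 0.767).

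FOSL1, or Fra-1, which lacks the C-terminal activation domain of FOS and supports bone matrix formation, varied little, with the smallest fold range of the 8 genes above the filter. Its levels ran from 6.27 through 6.54 to 6.84 with normal ALP and from 6.29 through 6.49 to 7.0 with increased ALP. The highest tumours were increased ALP replicates 3 and 6, the arrays with the bright spike-in, at 7.0 and 6.89. Its SD of 0.22 over 18 tumours exceeded that of 21.9% of the probe sets tested. The group difference was 0.04 ± 0.11 (SE, 95% interval -0.18 to 0.27; limma, adjusted p = 0.962). It was -0.07 without increased ALP replicates 3 and 6.

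FOSL2, or Fra-2, the relative that acts in osteoblast and osteoclast differentiation, had a different extreme tumour. At its probe set of higher mean, levels ran from 7.25 through 7.62 to 9.04 with normal ALP and from 6.68 through 7.56 to 9.39 with increased ALP. Increased ALP replicate 7 was highest, at 3.72-fold the median, followed by normal ALP replicate 4 at 9.04, and no other tumour exceeded 8.16. The second probe set gave the same order at the top, with 8.14 and 7.76, and the probe sets correlated at r = 0.956. The group differences were -0.09 ± 0.30 and 0.01 ± 0.16 (SE; limma, adjusted p = 0.974 and 0.998).

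JUN, the AP-1 subunit that can bind DNA as a pair with itself, varied widely without a single outlying tumour. Its levels ran from 8.84 through 10.92 to 12.08 with normal ALP and from 8.06 through 10.25 to 11.79 with increased ALP. Normal ALP replicates 2, 7 and 3 and increased ALP replicate 3 stood between 11.76 and 12.08, while increased ALP replicate 9 and normal ALP replicate 6 were lowest at 8.06 and 8.84. Normal ALP replicate 4, extreme in FOS, stood at 11.43 in JUN. The SD of JUN over all tumours was 1.16, more than that of 97.5% of the probe sets tested. Group means were 10.60 ± 1.29 and 10.16 ± 1.05 (SD, n = 9 each). The groups differed by -0.45 ± 0.52 (SE, 95% interval -1.53 to 0.63; limma, adjusted p = 0.908; exact permutation p = 0.427).

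JUNB, a weaker activator that can restrain JUN, had levels from 7.07 through 7.50 to 8.41 with normal ALP and from 6.82 through 7.42 to 8.09 with increased ALP. The highest was again normal ALP replicate 4, ahead of increased ALP replicates 1 and 2 at 8.09 and 7.83. The group difference was -0.11 ± 0.19 (SE, 95% interval -0.50 to 0.29; limma, adjusted p = 0.941).

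EGR1, a zinc finger factor that growth factors induce through SRF, had the largest gap between a single tumour and the rest among the 9 genes at their probe sets of highest mean. At its probe set of higher mean, levels ran from 7.39 through 8.04 to 11.03 with normal ALP and from 7.36 through 8.12 to 8.66 with increased ALP. In EGR1, normal ALP replicate 4 was 1.97 above the next tumours, normal ALP replicates 5 and 6 at 9.07 and 9.05, and its signal was 8.04-fold the median. Without it the SD of the tumours with normal ALP fell from 1.12 to 0.63. The difference between groups was -0.34 ± 0.38 (SE, 95% interval -1.14 to 0.45; limma, adjusted p = 0.905; exact permutation p = 0.465), and it was -0.02 without that tumour. At the second probe set this tumour stood at 9.33 against at most 7.30 elsewhere, and the difference was -0.44 ± 0.33 (SE; limma, adjusted p = 0.864; exact permutation p = 0.250). The EGR1 probe sets correlated at r = 0.960.

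ATF3, a stress-induced leucine zipper factor of the CREB family, had levels from 5.81 through 6.08 to 7.98 with normal ALP and from 5.46 through 6.11 to 6.61 with increased ALP. In ATF3 it was again normal ALP replicate 4 that stood out, 1.37 above every other tumour and at 4.52-fold the median. ATF3 was dim: its mean of 6.21, which includes this tumour, lay at percentile 41.3 of probe sets, just above the filter at 40. The mean with normal ALP was 6.09 without this tumour, and that with increased ALP was 6.11. Whether ATF3 would pass the filter without it was not tested. The other 17 tumours lay between 5.46 and 6.61 in both groups. The group difference was -0.18 ± 0.25 (SE; limma, adjusted p = 0.919) and 0.03 without that tumour.

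IER3, a membrane protein that modulates cell survival under stress and is no transcription factor, had no outlying tumour above the rest. At its probe set of higher mean, levels ran from 8.78 through 10.00 to 10.67 with normal ALP and from 9.33 through 9.93 to 10.80 with increased ALP. Increased ALP replicate 1 was highest, normal ALP replicate 4 second at 10.67, and normal ALP replicate 8 lowest. The group difference was 0.10 ± 0.25 (SE; limma, adjusted p = 0.959), and -0.21 ± 0.23 at the second probe set (SE; limma, adjusted p = 0.904).

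Read against all probe sets, the members did not stand out. In limma, 0 of the 12 member probe sets that passed the filter had an adjusted p under 0.05, against 0% of the 25754 tested, and 0 had an unadjusted p under 0.05, against 6.14% of those tested. The smallest unadjusted p of a member was 0.202, at the second EGR1 probe set. The smallest adjusted p over all probe sets was 0.608. The intervals remained wide, and differences of about 1 on the log2 scale in FOS, JUN or EGR1 lie within them. The probe sets of JUN, FOSB and EGR1 and the second ones of FOSL2 and IER3 are of the _s_at kind, and hold probes that may also match related transcripts.

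**Figure D2:**
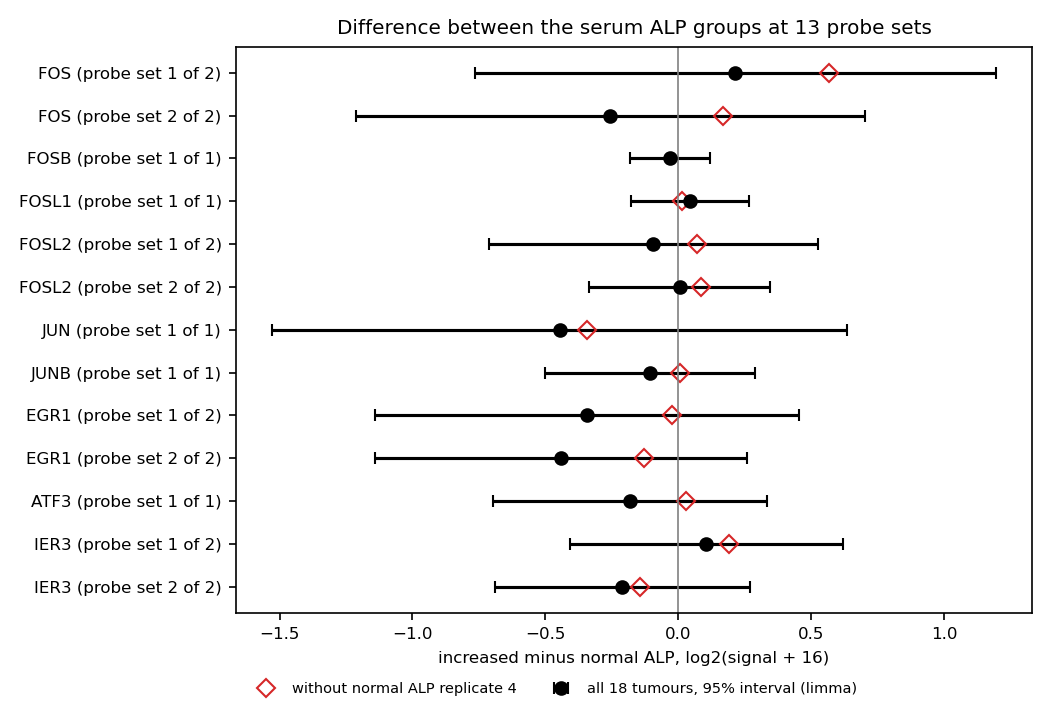
Difference between the serum ALP groups (increased minus normal, log2(signal + 16)) at the 13 probe sets; black points are limma estimates from all 18 tumours with 95% intervals, and red diamonds are the estimates without normal ALP replicate 4, which was not refitted for FOSB. Every interval spans 0, and leaving out that tumour moves FOS from 0.21 to 0.57 and EGR1 from -0.34 to -0.02.

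Across tumours FOS and JUNB moved together, and the other pairs of members did not pass a test of correlation. Pearson's r was computed for the 36 pairs of the 9 genes, with two-sided permutation p-values from 100000 resamples and Benjamini-Hochberg adjustment over the 36. Of these, 1 pair passed, FOS with JUNB, at r = 0.750 (permutation p = 0.00042, adjusted p = 0.0151) and rho = 0.600 (permutation p = 0.00962, adjusted p = 0.181). Within groups r was 0.823 with normal and 0.737 with increased ALP. On leaving out normal ALP replicates 3 and 4, the tumours farthest from the median FOS level, it was 0.558, with an adjusted permutation p of 0.391. Without normal ALP replicate 4 alone it was 0.596, with an adjusted permutation p of 0.180. FOS and JUNB were thus positively correlated in each of these subsets, but passed the adjustment in none of them.

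Much of the shared variation came with normal ALP replicate 4. With it, 14 of 36 pairs had an unadjusted permutation p under 0.05 and the median r was 0.339. Without it these were 3 pairs and 0.146, and 0 pairs passed the adjustment. Of the 14, those without FOSB or ATF3 were FOS with JUNB, EGR1 and IER3, and JUNB with IER3. The others involved FOSB, which lies below the filter, or ATF3, whose mean just above it includes normal ALP replicate 4. The share over pairs of all genes was not computed. FOS with EGR1 went from r = 0.698 (rho = 0.503, adjusted permutation p = 0.0623 for r) to 0.388, FOS with ATF3 from 0.652 to 0.282, and EGR1 with ATF3 from 0.644 to 0.0094. FOSB with FOSL2 stood at r = 0.627 over all tumours and at -0.33 without normal ALP replicate 4 and increased ALP replicate 7, which are the highest tumours of both genes.

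The number of pairs that passed also depended on other single tumours. It was 6 when normal ALP replicate 8 was left out, and 2 when the tumour left out was replicate 6 of normal ALP or replicate 1, 4, 7, 8 or 9 of increased ALP. By Spearman's rho, within either group, and without the 2 tumours farthest from the median of the gene on the x axis, 0 pairs passed. Over all 74 pairs of probe sets of different genes, each had the sign of its gene pair and 2 passed, both of them FOS with JUNB.

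Several pairs had a negative r over all tumours or only in a subset of them, although 0 of these negative values passed. FOSL2 with EGR1 had r = 0.105 over all tumours but -0.59 without normal ALP replicate 4 (permutation p = 0.00785, adjusted p = 0.180), and -0.76 within increased ALP. JUN with EGR1 stood at -0.16 and then -0.58 without that tumour. FOS with JUN, the canonical AP-1 partners, had r = -0.19 (rho = -0.34, adjusted permutation p = 0.618 for r) over all tumours, -0.46 without that tumour, and 0.094 and -0.67 within normal and increased ALP. FOSL1 with EGR1 was at -0.45 (rho = -0.49, adjusted permutation p = 0.138 for r).

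**Figure D3:**
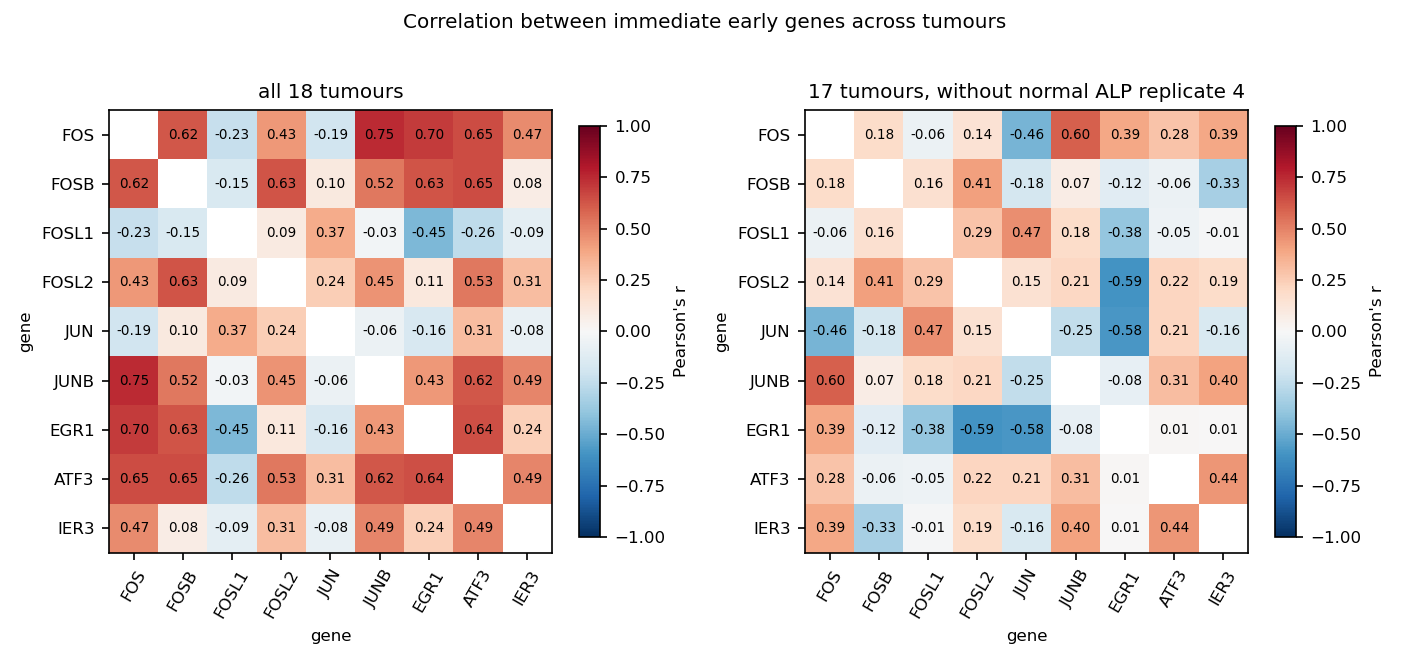
Pearson's r for each pair of the 9 genes, printed in the cells and coloured from -1 (blue) to 1 (red), over all 18 tumours (left) and the 17 without normal ALP replicate 4 (right). FOS, JUNB, EGR1 and ATF3 correlate positively on the left, FOS with JUNB at 0.75, while on the right EGR1 with ATF3 is at 0.01 and EGR1 with FOSL2 at -0.59.

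**Figure D4:**
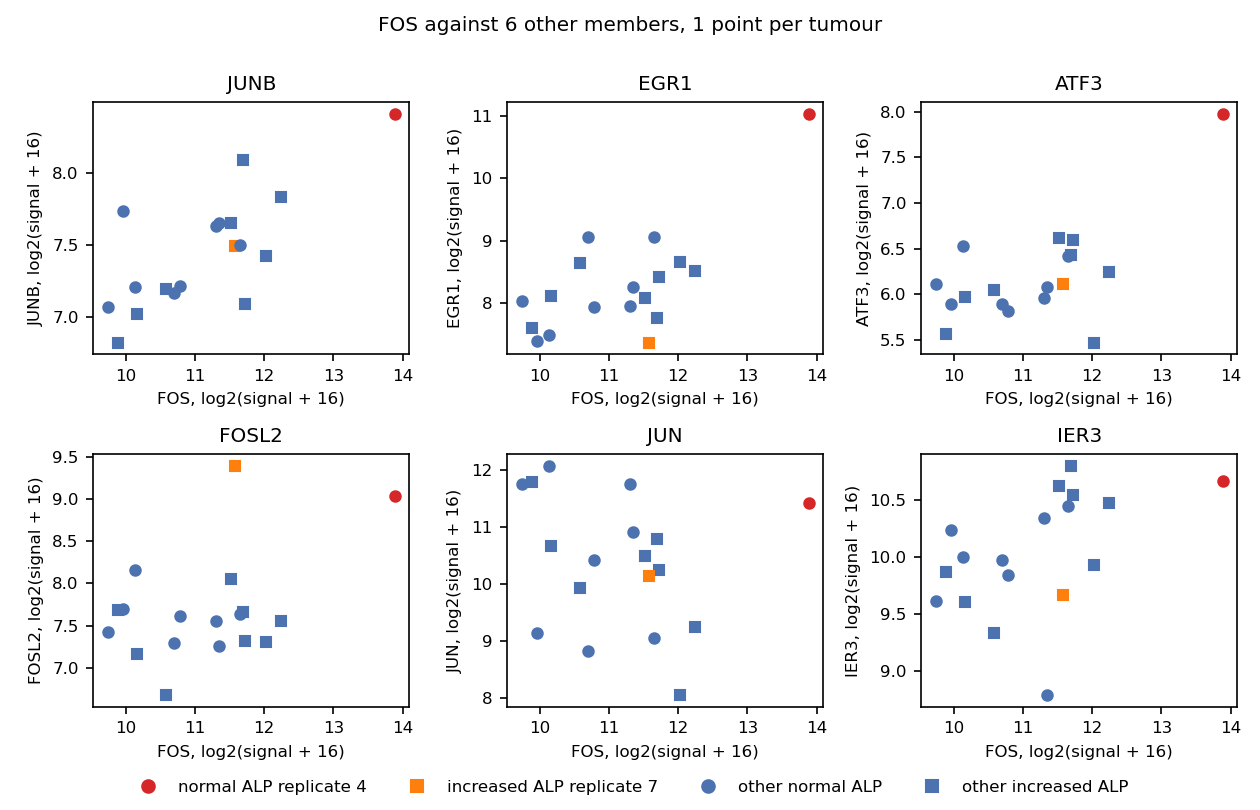
FOS level (x axis) against JUNB, EGR1, ATF3, FOSL2, JUN and IER3 (y axes), all as log2(signal + 16), with 1 point per tumour; circles are normal and squares increased ALP. Normal ALP replicate 4 (red) lies alone at a FOS level of 13.89, and increased ALP replicate 7 (orange) is the highest in FOSL2 at 9.39 with FOS at 11.58.

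Other immediate early genes were high in the same tumour. Of 28 further immediate early genes above the filter, each at its probe set of highest mean, normal ALP replicate 4 was the highest of 18 tumours in 18 (64.3%). Over all 10717 genes it was the highest in 1.77%. The 18 genes were the nuclear receptors NR4A1 and NR4A2, EGR2, the phosphatases DUSP1, DUSP5 and DUSP6, KLF4, KLF6, IER2, BTG2, ZFP36, CCN1, SGK1, MCL1, TIPARP, PLK2, PLK3 and TRIB1. The next tumours, normal ALP replicate 7 and increased ALP replicates 2 and 6, were highest in 2 of the 28 each. This tumour was singled out after its values were seen, so these counts are a description.

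When all 10717 genes were ordered by how far this tumour exceeded every other, RCAN1, a calcineurin regulator, came first, 2.04 above the next tumour. EGR1 at 1.97, FOS at 1.64 and ATF3 at 1.37 followed, ahead of NR4A1, an orphan nuclear receptor, at 1.31. The place of ATF3 rests on a mean just above the filter that includes this tumour, through which alone it may have passed. The first 20 held 3 members, ATF3 included, and 6 of the 28 other immediate early genes. Among them were also ZFP36, which destabilises AU-rich mRNAs, at 0.95, and the AP-1 target PLAU, the urokinase gene, at 0.64. The heat shock list did not share the position, since the tumour ranked 10th of 18 in its mean deviation.

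Quality measures and cell markers of this tumour were as follows. Its actin 3' to middle difference of 0.413 ranked 15th of 18, its GAPDH difference of 0.418 ranked 6th, and its BioB signal of 8.66 ranked 16th. In mean deviation over a marker list it ranked 3rd for smooth muscle and pericyte genes at 1.30, where 6 of 6 markers were measured and the tumours ranged from -1.32 to 2.18 with normal and from -1.20 to 1.40 with increased ALP. It ranked 5th for endothelial genes (8 of 8 measured, -1.30 to 1.05 and -0.78 to 1.06), for fat cell genes and for hypoxia and glycolysis genes. It ranked 7th for macrophage genes, 8th for neutrophil and cartilage genes and 9th for osteoblast, osteoclast and cell division genes. For skeletal muscle genes it ranked 12th, and for T and NK cell genes 15th. The part of these in the result was not tested.

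Increased ALP replicate 7, high in FOSL2 and FOSB, shared this profile only in small part. In mean deviation over the 28 other immediate early genes, where normal ALP replicate 4 ranked 1st at 1.09, it ranked 6th of 18 at 0.155. It was the highest tumour in 1 of the 28 other immediate early genes, GADD45B, and the lowest of all in EGR1, at 7.36. The first 20 genes by which it exceeded the other tumours held 0 members and 0 of the 28. It ranked 17th of 18 in the mean deviation of osteoclast genes, at -3.49 (4 of 6 markers measured, with tumours from -3.52 to 2.09 with normal and from -3.49 to 1.80 with increased ALP), and 17th in that of AP-1 target genes, at -1.31. It ranked 2nd for smooth muscle and pericyte genes, at 1.40, and 4th for endothelial genes and for hypoxia and glycolysis genes. For neutrophil and cell division genes it also ranked 17th. The part of these in its FOSL2 level was not tested.

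**Figure D5:**
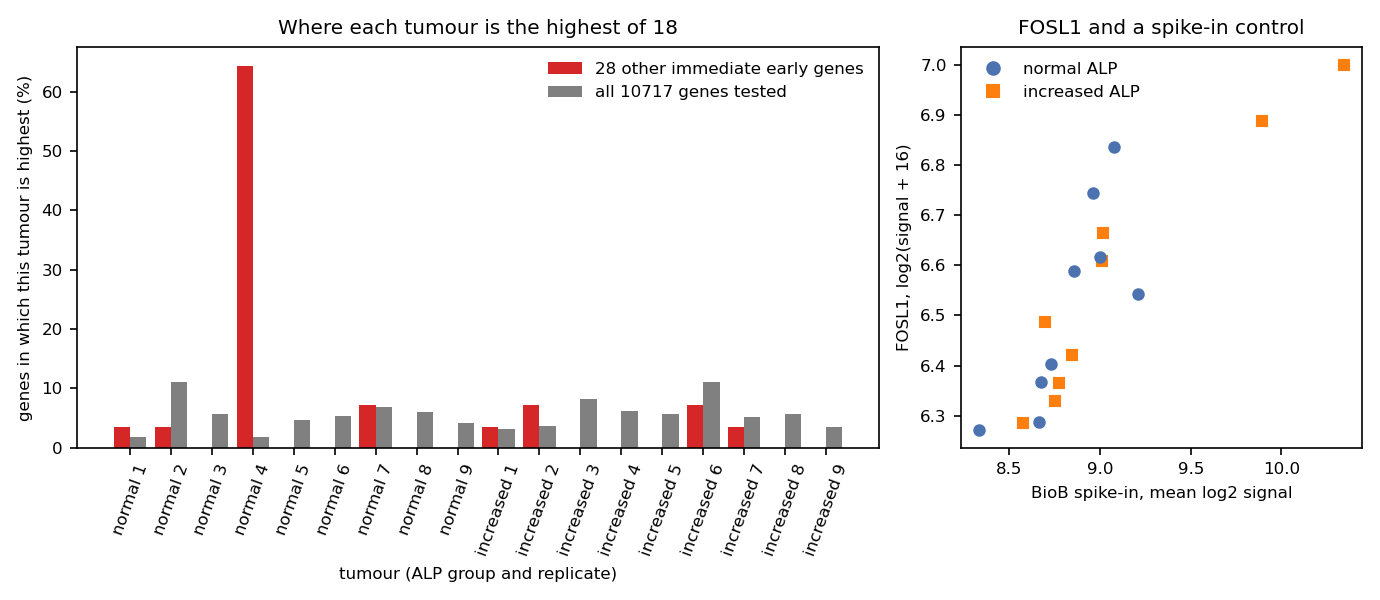
Left: share of genes (%) in which each tumour was the highest of 18, for 28 other immediate early genes (red bars) and all 10717 genes tested (grey bars); right: FOSL1 level, log2(signal + 16), against the mean log2 signal of the BioB spike-in, 1 point per tumour. Normal ALP replicate 4 is highest in 64.3% of the immediate early genes against 1.77% of all genes, and FOSL1 rises with the spike-in at r = 0.861.

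FOS was then set against 13 gene lists (12 cell type, division and hypoxia lists and the heat shock list) and 5 array quality measures, 18 relations in all. The red cell and epithelial lists, with 1 measured gene each, were left out. By r, 0 passed at an adjusted permutation p under 0.05, the smallest adjusted value being 0.815. The farthest from 0 was cartilage genes, at r = -0.35 (permutation p = 0.154) and rho = -0.48 (permutation p = 0.0444, adjusted p = 0.499), with r = -0.34 without normal ALP replicates 3 and 4. Within groups this was -0.24 and -0.51. Hypoxia and glycolysis genes stood at r = 0.305 (permutation p = 0.216) and rho = 0.461. Osteoclast genes, whose cells need Fos to form, stood at r = 0.075 (permutation p = 0.770), and osteoblast genes at -0.06 (permutation p = 0.815).

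The same relations for all 9 members, 162 in number and added after seeing the data, showed FOSL1 moving with array measures. FOSL1 correlated with the BioB spike-in at r = 0.861 and rho = 0.901 (permutation p = 1e-05 for each, the smallest that 100000 resamples can give, adjusted p = 0.00162). It correlated with the SD of values over the array at r = -0.81 (permutation p = 5e-05, adjusted p = 0.00405; rho = -0.80, permutation p = 0.00021, adjusted p = 0.0170). Without increased ALP replicates 3 and 6 these were 0.800 and -0.65. Within normal and increased ALP they were 0.788 and 0.944 for the spike-in, and -0.67 and -0.93 for the SD. Of 10717 genes, 0.383% had an r with the spike-in at least as far from 0 as that of FOSL1, and 2.29% with the array SD. The part of the array in the FOSL1 values was not tested. FOSL1 was the only member with a relation that passed among the 162.

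The other genes of the pathway were counted from lists, each gene at its probe set of highest mean. In limma's adjusted test 0 genes passed in any of them, as among all 10717 genes, of which 5721 (53.4%) were higher with increased ALP and whose median difference was 0.013. The list of further immediate early genes held 45 symbols, in which CYR61 and CTGF are older names of CCN1 and CCN2. Of these, 28 were measured above the filter, with 17 higher, 11 lower and a median of 0.022. Those with the smallest p were TIPARP, an ADP-ribosyltransferase, at -0.41 ± 0.31 (SE), the kinase PLK3 at -0.14 ± 0.14, the ERK phosphatase DUSP6 at 0.27 ± 0.27 and the cell cycle inhibitor CDKN1A at -0.25 ± 0.27. The same list followed FOS, with a median r of 0.505 and 14 of 28 genes over 0.5, against a median of -0.01 and 1.49% of all genes. Without normal ALP replicate 4 the median was 0.315 and 4 of the 28 (14.3%) remained over 0.5. Over all genes these were then -0.002 and 1.84%.

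Of 16 other AP-1 and related leucine zipper genes, 12 were measured, 5 higher and 7 lower, with a median of -0.02. The smallest p was that of ATF1, a CREB relative, at -0.50 ± 0.16 (SE; limma, unadjusted p = 0.00479, adjusted p = 0.611). Next by p were the oxidative stress factor NFE2L2 at -0.36 ± 0.20, the AP-1 repressor JDP2 at -0.20 ± 0.14 and ATF4 at -0.06 ± 0.09. Upstream kinases and factors were measured for 12 of 17 symbols, in which MKL1 is an older name of MRTFA, 5 higher and 7 lower, with a median of -0.08. SRF, the factor that binds the FOS and EGR1 promoters, stood at 0.28 ± 0.18 (SE), the JNK kinase gene MAPK9 at -0.34 ± 0.22, the SRF coactivator MRTFA at -0.11 ± 0.08 and the ternary complex factor ELK4 at -0.19 ± 0.13.

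AP-1 target genes were measured for 14 of 17 symbols, in which IL8 is an older name of CXCL8, 8 higher and 6 lower, with a median of 0.033. PLAU stood at -0.45 ± 0.31 (SE), the cytokine IL6 at 0.86 ± 1.13, the collagenase MMP13 at -0.59 ± 0.82 and the metalloproteinase inhibitor TIMP1 at 0.16 ± 0.23. Heat shock genes were measured for 7 of 8, 1 higher and 6 lower, with a median of -0.32. The chaperones HSPA8, DNAJB1, BAG3 and HSPH1 stood at -0.32 ± 0.19, -0.57 ± 0.45, -0.37 ± 0.30 and -0.33 ± 0.34 (SE). None of these differences passed the adjusted test in limma.

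The genes most like 3 of the members, by Pearson's r over the 18 tumours among 10716 other genes, were different for each. For FOS they were DCAF12, a ubiquitin ligase adaptor, at 0.751, JUNB at 0.750, ZFP36 at 0.730, the mitochondrial ribosomal protein gene MRPL17 at 0.716 and the chemokine receptor ACKR3 at 0.712. Without normal ALP replicate 4, 1 of these 5 remained among the first 5, ACKR3 at 0.727. For IER3 they were PTGS2, the inducible cyclooxygenase, at 0.736 (rho = 0.849), the small GTPase RIT1 at 0.722, the vesicle coat gene SEC24A at 0.720, the Hippo pathway factor TEAD4 at 0.691 and LIPT2 at 0.690. For FOSL1 they were COL26A1, a collagen, at 0.858, SARDH, a mitochondrial enzyme, at 0.843, ANKMY1 at 0.841, the tight junction claudin CLDN3 at 0.838 and CPN1, a carboxypeptidase, at 0.836. The tumour highest in each of these 5 was increased ALP replicate 3 or 6, as for FOSL1. Without normal ALP replicate 4, 2 of the 5 for IER3 (PTGS2 and RIT1) and 1 of the 5 for FOSL1 (COL26A1) remained among the first 5. By Spearman's rho 2 remained for FOS, 2 for IER3 and 1 for FOSL1. These lists describe likeness over 18 tumours and carry no test.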

How the data were processed

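RNA from snap-frozen tumours had been extracted with TRIzol and labelled with biotin, per the labels' protocols. The authors deposited 1 log2 signal per probe set and array, with values from 2.03 to 15.09. MAS5 is named in the submitters' processing notes, with no version, and the normalization is not given in the sources used here. An offset of 16 was added on the linear scale before log2 was retaken. Probe sets with a mean below the 40th percentile were left out, and 25754 of 42924 remained after 111 control probe sets were set aside. Gene names came from the platform annotation, with 29254 probe sets carrying 1 symbol, updated through the RefSeq gene table of assembly UU_Cfam_GSD_1.0. Depth has no meaning for arrays, and their number limits the precision.

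The ALP groups were compared with limma 3.58.1 in R 4.3.3 (lmFit, eBayes with an intensity trend, two-sided, Benjamini-Hochberg over all probe sets tested, threshold 0.05), and for each member by an exact two-sided permutation of the difference in means. Correlations used 100000 permutations, and every order within a group of 9 (Python 3.11.15, NumPy 2.4.6, SciPy 1.17.1, pandas 2.3.3, matplotlib 3.10.9). A list's mean deviation is the mean, over its genes, of a tumour's level minus the mean of all tumours. The fit and the permutations were tested on simulated data. The text names every member, of each pathway list the 4 genes of smallest p, and the 5 genes most like FOS, IER3 and FOSL1. Members and lists were chosen with earlier results of these data known. Alternatives were other offsets, filters, normalizations and variance models, the tissue number as a block, rank correlation, and leaving out tumours. Leaving out pairs of tumours, RNA quality covariates, and relations of members other than FOS were added after seeing the data. No sequences or coordinates were used here.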

Additional observations from a re-analysis of the deposited data

Results flagged for a closer look

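In each group of 9 tumours the highest and the lowest value of a named probe set were compared with their nearest neighbour. A tumour is listed where that gap, divided by the range of the group, exceeded the 95% critical value of Dixon's test for 9 values. For normally distributed values chance gives about 1 in 20 groups. Here 13 of 66 groups exceeded it, 10 among the 26 groups of the members and 3 among the 40 of the other named genes. The share over all probe sets was not computed, so these counts cannot be read as an excess in the members. Normal ALP replicate 4 accounted for 9 of the 13, as the highest tumour each time. These were FOS at 13.89 and, at its other probe set, 11.33, FOSB at 5.67, JUNB at 8.41, EGR1 at 11.03 and 9.33, ATF3 at 7.98, the ADP-ribosyltransferase gene TIPARP at 10.10 and the urokinase gene PLAU at 8.96. The other 4 concerned increased ALP replicate 7, which was highest in FOSL2 at 9.39 and 8.14 and in FOSB at 5.36, and lowest in the chaperone HSPA8 at 11.50. The members are correlated and some have a pair of probe sets, so the groups are not independent.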

How the results depend on the processing

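Under every setting run, 0 member probe sets and 0 of all probe sets passed the adjusted ALP test. Unadjusted counts over all probe sets moved from 1582 to 2625 without a filter, 976 at the 60th percentile filter and 849 without increased ALP replicates 3 and 6. The tissue numbers did not pair the tumours: deviations of same-numbered tumours correlated between -0.16 and 0.270, and 0 of 9 numbers gave the best match. With that number as a replicate block, 0 member probe sets and 0 of all probe sets passed (1677 at an unadjusted p under 0.05, smallest adjusted p 0.0684).

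Signs of small member differences turned. On leaving out single tumours, the second FOS probe set ranged from -0.404 to 0.167, FOSL1 from -0.0112 to 0.0834, FOSL2 from -0.312 to 0.0689 and its second probe set from -0.120 to 0.0848. JUNB ranged from -0.193 to 0.00479, ATF3 from -0.245 to 0.0280 and IER3 from -0.0461 to 0.200. Without the outlying tumours of both groups (replicate 4 of normal and 7 of increased ALP) the second FOS probe set stood at 0.119, the second of FOSL2 at -0.0407, EGR1 at 0.0713 and ATF3 at 0.0290. With the actin difference as covariate FOS stood at -0.0989, FOSL1 at -0.0260, the second FOSL2 probe set at -0.0260, IER3 at -0.0280, IL6 at -0.178 and TIMP1 at -0.122. FOSL1 was -0.0656 without increased ALP replicates 3 and 6. The cause was not tested.

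Of 36 member pairs, 1 passed. This was 0 by Spearman's rho, within either group, without the 2 tumours farthest from the median, and without either pair of tumours left out together, 2 over pairs of probe sets, and 0 to 6 on leaving out single tumours. FOSL2 with EGR1 was -0.461 by rho, -0.761 within increased ALP, -0.531 without both outlying tumours, which are also the farthest, and -0.595 to 0.391 on leaving out single tumours. FOSB with FOSL2 was -0.327 without those. FOS with JUN was 0.0939 within normal ALP, and EGR1 with ATF3 -0.0206 within increased ALP and -0.114 without the farthest tumours. By r or rho, 0 FOS relations with lists or quality measures passed under any setting.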

Other observations

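Genes most like 3 further members were added after seeing the data. For JUN these were EIF4A2, a translation initiation helicase, at r = 0.762 over 18 tumours, NAV3 at 0.755, ZFYVE9, a TGF-beta receptor anchor, at 0.735, ZNF292 at 0.709 and LRRN1 at 0.707. Without normal ALP replicate 4, 3 of these 5 remained among the first 5. For EGR1 they were the ERK phosphatase DUSP5 at 0.763, the elongation factor ELL2 at 0.734, SPRY1, a feedback inhibitor of receptor tyrosine kinases, at 0.721, FOS at 0.698 and RCAN1 at 0.688. Each of these 5 was highest in normal ALP replicate 4, and 0 of them remained among the first 5 without it, where RCAN1 stood at 0.127. For FOSL2 they were NR4A2 at 0.869, TIPARP at 0.830, CRISPLD2 at 0.826, MFSD2A, a lipid transporter, at 0.825 and MAP1LC3C at 0.824. Of these, NR4A2 and TIPARP were highest in normal ALP replicate 4 and the other 3 in increased ALP replicate 7. Without normal ALP replicate 4, 1 of these 5 remained among the first 5, NR4A2 at 0.817. By Spearman's rho 0 remained, and the rho of the 5 with FOSL2 lay between 0.474 and 0.647.

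The genes by which increased ALP replicate 7 most exceeded every other tumour were PIGR, the polymeric immunoglobulin receptor, by 1.31, the proteoglycan CSPG5 by 1.18 and ANOS1 by 1.15. IL6, an AP-1 target, was highest in increased ALP replicate 6 at 12.18 and second highest in normal ALP replicate 4 at 11.93.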
